A study of Mus musculus with 24 samples.

Results

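The progression of ureter obstruction was described by comparing kidneys obstructed for 7 days (UUO7, 4 animals) with kidneys obstructed for 2 days (UUO2, 4 animals). These 8 libraries, chosen by their sample titles, are part of a series of 24 in 6 groups of 4. All animals were male C57/BL6 mice, labelled as 8 weeks old. In both groups 1 ureter had been ligated and left ligated until the kidney was taken, so that neither group had recovered. A sham-operated group (4 animals) supplied the level before obstruction. The other 12 libraries came from kidneys whose 7-day obstruction had been surgically reversed 1, 2 or 4 weeks earlier, and they entered the model as separate groups that share its estimate of the spread. The labels name no transgene, deletion or drug in any group. Each library is labelled as whole-kidney tissue, while the series title speaks of cortical kidney, and the sequenced animals were a selection from larger groups whose basis is not given in the sources used here. The question was which changes of day 2 had grown, had reversed or had drawn no further call by day 7, and which appeared only then.

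Ligation of a ureter raises the pressure in the tubules, stretches their epithelium and stops the flow of filtrate. The kidney is known to answer in stages: tubule cells lose their transport genes and take on an injury program, leukocytes enter the interstitium, and fibroblasts and pericytes lay down a collagen-rich matrix in which the remaining tubules atrophy. Obstruction is therefore a standard model of renal fibrosis.

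Values are FPKM, the number of fragments per kilobase of transcript scaled to library depth, as inferred from the deposited table, and all differences are on log2(FPKM + 1). FPKM are relative within a library, so a gene was called only if limma gave a Benjamini-Hochberg adjusted p under 0.05, over all 14785 genes, both on the deposited values and after each library was rescaled by a median of ratios to each gene's geometric mean, with the same direction in both. In the text "rose" and "fell" are used of such calls between UUO2 and UUO7. Log2 differences and adjusted p-values of single genes are those of the rescaled values unless the deposited scale is named. FPKM are the deposited values.

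The UUO2 libraries differ from the rest in ways that cannot be separated from the time point. Steps of whole fragments in the low values gave a depth of 73.1 to 108.7 M fragments (M for mega) in UUO2, 26.5 to 29.9 M in UUO7 and 24.9 to 35.5 M over the 20 libraries outside UUO2. The fit of these steps scored 7.46 to 8.67 in UUO2 and 12.58 to 16.47 in the others, so the UUO2 depths are less firm. The UUO2 libraries also carry another style of sample number, though their titles have the form of those of UUO7. The design text counts 20 libraries where the series has 24. Mitochondrial ribosomal RNA, which polyA selection should largely remove, stood at 1821 to 2380 FPKM for mt-Rnr2 in UUO2 and at 133 to 400 in the other 20 libraries. The summed level of 12 genes listed as lacking a poly(A) tail was not raised in UUO2. It was 358 to 462 FPKM in UUO2, 414 to 499.5 in UUO7 and 483 to 546 in sham. In 681 genes (4.61%) all 4 UUO2 libraries lay outside the range of the other 20 on both scales, and 6 genes, 4 of them annotated as microRNAs, were at 1 FPKM or more in every UUO2 library and under 0.5 in every other one. Pearson's r across genes was 0.967 to 0.99 between UUO2 libraries, 0.982 to 0.987 between UUO7 libraries and 0.89 to 0.942 between the groups. The library set and the further days of obstruction cannot be told apart for a gene seen in these 8 libraries alone.

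UUO2 replicate 2 was the library of its group nearest to sham by its thick ascending limb and injured-tubule genes. Its mean log2(FPKM + 1) over 14 thick ascending limb genes was 5.66, against 4.52 to 4.73 in the other UUO2 libraries and 5.62 to 5.93 in sham. Over 29 injured-tubule genes its mean was 5.68, against 6.29 to 6.66 in the other 3, 3.59 to 4.52 in sham and 7.16 to 7.24 in UUO7. Counts that change by more than 1.5 times without it are given with both values, except that list counts of 0 to 2 moved by 1 call or more in several lists when UUO2 replicate 2 or 4 was left out, and nothing is read from them.

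Among the sham libraries replicate 2 stood apart. Its mean log2(FPKM + 1) was 3.15 over 8 urothelial genes, against 0.30 to 0.72 in the other 3, and 5.12 over 9 adipose genes, against 2.77 to 2.78. Without it 891 of the early changes reversed, 1768 grew and 3168 had no further call, and 3121 changes were late.

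**Figure D1:**
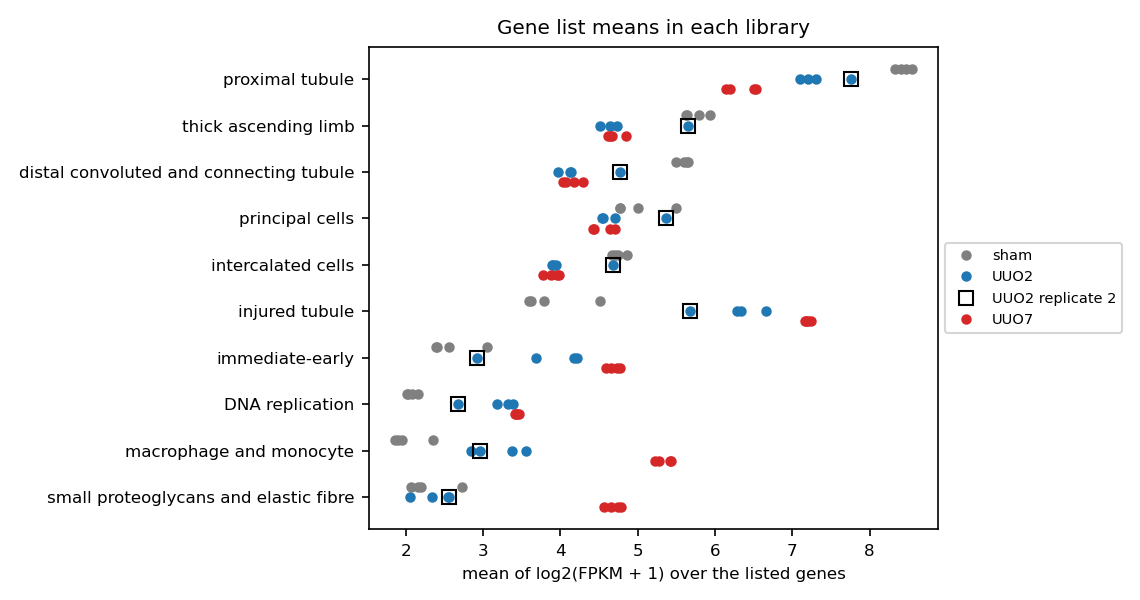
Mean of log2(FPKM + 1) over the genes of 10 lists (rows) in each sham, UUO2 and UUO7 library (points), with UUO2 replicate 2 boxed. The boxed library lies nearer to sham than the other UUO2 libraries in the injured-tubule, immediate-early and DNA replication rows and in those of the tubule segments, except that in the principal cell row replicate 4 is nearer to the sham mean. In the macrophage row it lies among the others.

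Between day 2 and day 7, 6609 of 14785 genes (44.7%) were called, 4440 higher (30%) and 2169 lower (14.7%). The split follows from the scale: the deposited values alone called 7686 higher and 2169 lower, and the rescaled values alone 4440 higher and 4722 lower. The median over all genes was 0.28 on the deposited scale and -0.02 on the rescaled scale. With a log2 difference of at least 1 required on both scales, 1691 genes (11.4%) were called, of which 1357 (9.18%) were higher and 334 (2.26%) lower. The 4 libraries of each group were fully separated on both scales in 4056 genes (27.4%) in the higher and 1867 genes (12.6%) in the lower direction. In the authors' deposited table the same contrast has 9034 called genes, 4085 higher and 4949 lower. Among the 6609 genes called on both scales 5964 are also called there in the same direction, 13 in the opposite one, and 632 are not called there.

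**Figure D2:**
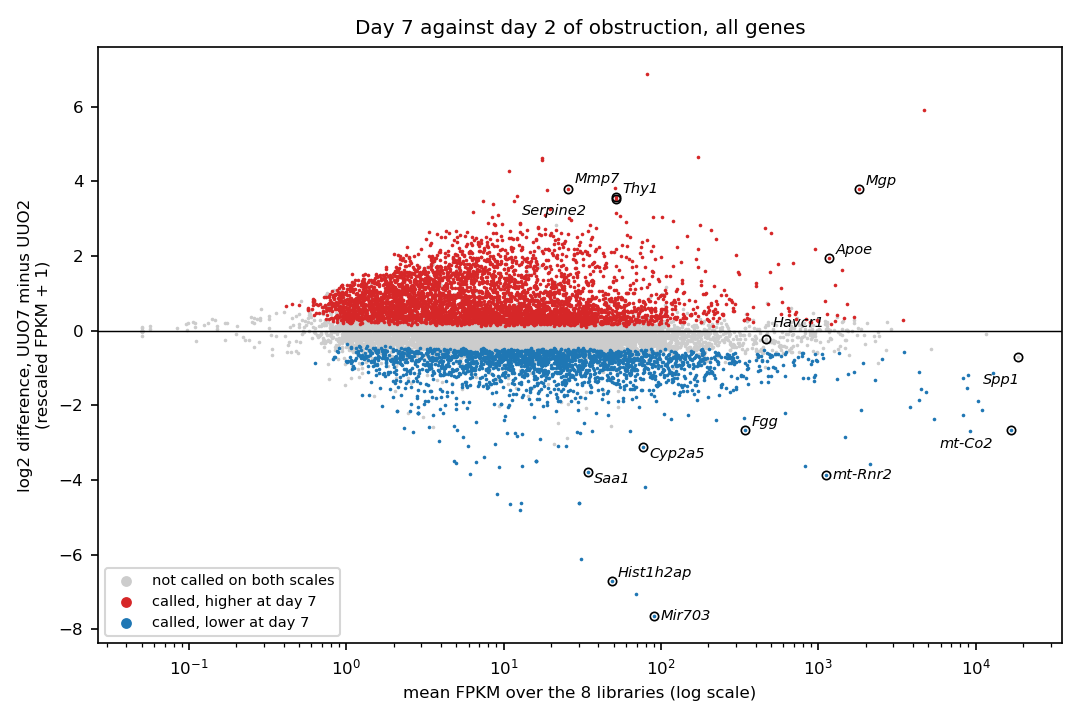
Log2 difference between UUO7 and UUO2 on rescaled FPKM + 1 (vertical axis) against the mean FPKM of the 8 libraries (log scale) for every gene, coloured by call, with named genes circled. Mgp, Mmp7, Thy1 and Serpine2 lie between 3.54 and 3.80, Havcr1 and Spp1 are among the uncalled genes, and the lowest points include Mir703 and Hist1h2ap, which are listed at 0 FPKM in all 4 UUO7 libraries.

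Against sham, 6219 genes (42.1%) were called on day 2, 3712 higher (25.1%) and 2507 lower (17%). By day 7, 1692 of these had moved further the same way (1084 higher and 608 lower), 1082 had moved back (574 first higher and 508 first lower), and 3445 had no further call, which does not show that they held their level. Another 3148 genes were called against both UUO2 and sham on day 7 and not on day 2, 2369 higher and 779 lower. The comparisons share the UUO2 libraries, so an offset of those libraries alone would appear as an early change and a reversal. Among the reversed genes, all 4 UUO2 libraries lay outside the other 20 in 324 of the 574 first higher (56.4%) and in 256 of the 508 first lower (50.4%). A reversed gene has UUO2 beyond both sham and UUO7 by definition, so these shares add only that UUO2 lay outside the reversal libraries as well. Against sham 8025 genes (54.3%) were called on day 7. By that call, 432 of the 574 genes first higher were not called against sham, 66 were still higher and 76 were lower. Of the 508 first lower, 356 were not called against sham, 15 were still lower and 137 were higher.

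**Figure D3:**
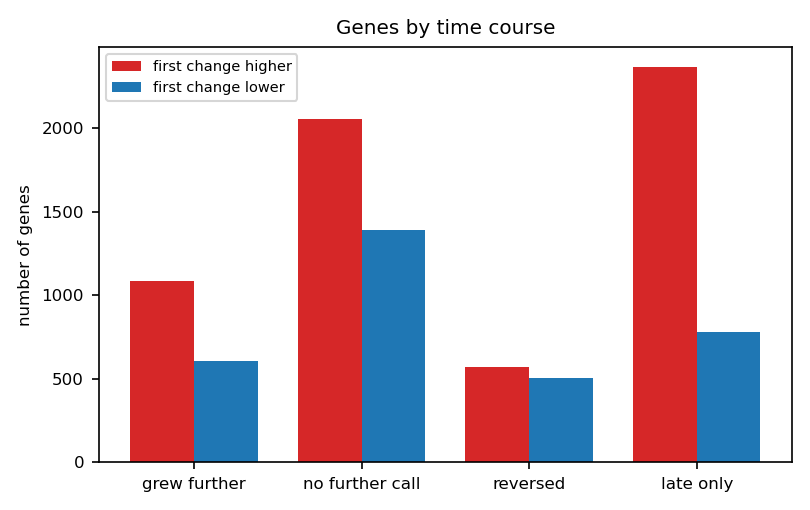
Number of genes (vertical axis) in each time course, with the direction of the first change in colour. The 3445 early changes with no further call and the 3148 late changes outnumber the 1692 that grew and the 1082 that reversed.

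Gene lists are described by the number of members with a row in the table that were called in each direction, beside the 30% higher and 14.7% lower over all genes. Proximal tubule genes, whose products reclaim most of the filtered salt, sugar, phosphate and protein, continued to fall. Of 30 listed genes 24 fell and 0 rose, and 18 of the 24 fell by at least 1 in log2 on both scales. The list's median difference was -1.42, beside -0.02 over all genes. Megalin (Lrp2, chr2:69424340-69586065, - strand, mm10), the receptor that takes up filtered protein, read 57.5, 96.5, 52.7 and 45.2 FPKM in UUO2 replicates 1 to 4 and 24, 24.1, 17.4 and 19.3 in UUO7, after 113 ± 13.3 (SD, n = 4) in sham. All UUO7 libraries were below all UUO2 libraries, and the highest UUO2 value was that of replicate 2 (log2 difference -1.82, SE 0.236, limma adjusted p = 1.4e-06). The phosphate transporter Slc34a1 fell from 2764 ± 188 in sham to 1231 ± 353 on day 2 and 651 ± 69.9 on day 7 (SD, n = 4 each, log2 difference -1.24). Other genes had no call on day 2 and fell afterwards. Slc5a12, a lactate transporter, stood at 40.4 FPKM in sham, 51.7 on day 2 and 9.1 on day 7 (log2 difference -2.74, SE 0.222, limma adjusted p = 3.6e-09), and Pck1, the enzyme that commits the tubule to making glucose, at 627, 549 and 123 (log2 difference -2.35). The 4 UUO2 values of Pck1 were 413, 1059.7, 311 and 412, so UUO2 replicate 2 carried the day 2 mean and the other UUO2 libraries lay below all 4 sham libraries. Not every member was called: Kap, an androgen-regulated protein and the most abundant of the list, stood at 10479.9 ± 2145 in UUO2 and 12629.5 ± 3039.9 in UUO7, far below the 41342 of sham on both days. In bulk tissue fewer cells of a type and less RNA per cell cannot be told apart.

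Fewer genes of the segments beyond the proximal tubule were called between the days. Of 14 thick ascending limb genes 4 fell and 0 rose, and 1 fell in the fit without UUO2 replicate 2. Uromodulin (Umod), the main urinary protein of that segment, read 719, 1324, 657 and 912 in UUO2 and 1047, 1117, 1027 and 1342 in UUO7. The groups overlapped, with UUO2 replicate 2 the highest of the 8 libraries, and no call was made. Epidermal growth factor (Egf) had gone from 431 ± 12.3 in sham to 22.6 ± 23.8 by day 2 and stood at 15.3 ± 1.78 on day 7, again without a call between the days. Of 12 distal convoluted and connecting tubule genes 10 were lower than sham on day 2, and between the days 1 rose and 2 fell. Klk1, the kallikrein of the connecting tubule, was the one with the greatest fall, from 321, 811, 298 and 242 to 131, 153, 168 and 179 FPKM (log2 difference -1.58, SE 0.341, limma adjusted p = 4.3e-04). In the collecting duct the water channel Aqp2 followed a later course: 173, 455, 158 and 175 in UUO2, with 159, 529, 143 and 216 in sham and no call on day 2, and 77.2, 64, 113 and 87 in UUO7. The UUO7 libraries were all below the UUO2 libraries (log2 difference -1.71, SE 0.387, limma adjusted p = 6.8e-04). In all, 3 of 11 principal cell genes fell, and 3 of 11 intercalated cell genes fell while 1 rose.

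Genes of the injured tubule followed more than 1 course. The best-known early markers had no call between the days. Kidney injury molecule 1 (Havcr1) went from 1.91 FPKM in sham to 472, 218, 645 and 508 on day 2 and 508, 443, 510.1 and 429 on day 7, and the lowest of the 8 was UUO2 replicate 2. Clusterin (Clu) stood at 2250.3 ± 53.1 and 2367 ± 189 in UUO2 and UUO7. Osteopontin (Spp1), a secreted phosphoprotein and one of the most abundant messages of the obstructed kidney, stood at 21142 ± 4413 and 16129 ± 1205, against 480.2 in sham, and was called lower in the fit without UUO2 replicate 2 (log2 difference -0.87, with -0.72 in the full fit). Lipocalin 2 (Lcn2), an iron-carrier binding protein, was between these and the genes that rose: 408, 418, 426 and 553 on day 2 and 888, 748, 807 and 1107 on day 7 did not overlap, and the deposited scale passed the test (limma adjusted p = 0.0398) while the rescaled values did not (log2 difference 0.62, limma adjusted p = 0.164). Other members kept rising. Vcam1, an adhesion molecule of tubule cells that fail to repair and of activated endothelium, read 28.2, 23.1, 26.5 and 49.4 and then 133, 141, 176 and 155 (log2 difference 1.92, SE 0.216, limma adjusted p = 2.2e-07). Keratin 19 (Krt19) rose from 14.9 ± 5.47 to 88.6 ± 20.4 (log2 difference 2.19), and the calcium-binding protein S100a6 from 103 ± 51 to 500.1 ± 51.7 (log2 difference 2.02). Keratin 20 rose from 11.8 ± 1.8 to 35.1 ± 3.34 (log2 difference 1.16). Over the list, 16 of 29 genes rose, 0 fell, and 13 had been called on day 2 with no further call. Without UUO2 replicate 2, 11 rose and 2 fell. Urothelial genes, which share keratins with injured tubules, moved alongside: all 8 with a row rose (3 of the 8 with a pseudocount of 10), their summed level was 1.05 to 6.46 FPKM in UUO2, 45.4 to 82 in UUO7 and 2.06 to 104 in sham, where the highest value is that of replicate 2 and the next is 6.18, and 0 of the 8 was at 0 throughout either group. Psca, the highest of them, was at 0.51, 0.95, 0.49 and 1.01 and 16, 16.6, 25.6 and 32.1, with 0.26, 60.9, 0.69 and 2.73 in sham. Sprr2a2, a cornified-envelope gene of stressed epithelia and the greatest rise among the named genes, was at 2.95, 4.47, 0.61 and 23.8 and 85, 80.3, 95.8 and 117 (log2 difference 3.82), with 0.33, 79.9, 1.53 and 4.84 in sham. The part of urothelium in these rises was not tested.

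Acute-phase genes moved in both directions, in shares near those of all genes. The 3 fibrinogen chains, liver-type clotting proteins that injured tubules also make, had risen together by day 2 and fell together afterwards. Fgg read 619.8, 293, 714 and 665 FPKM in UUO2 and 133, 139, 87.3 and 86.4 in UUO7, with 6.63 in sham (log2 difference -2.65, SE 0.241, limma adjusted p = 1.5e-08). Fga read 391, 148, 477 and 447 and then 100.1, 98.7, 64.1 and 66 (log2 difference -2.39), and Fgb 56.2, 29.1, 59.2 and 54.7 and then 9.7, 9.39, 8.79 and 5.94 (log2 difference -2.72). In each chain the lowest UUO2 library was replicate 2, and all UUO7 libraries lay below it and above the sham mean. Saa1, serum amyloid A, fell from 63.7 ± 19.6 to 4.82 ± 1.79 (log2 difference -3.79), the greatest fall among named genes that were also detected in every UUO7 library. Against this, genes of the same interleukin 6 family response rose: the receptor Osmr from 7.46 ± 3.46 to 18.3 ± 1.86, its feedback inhibitor Socs3 from 18.4 ± 10.9 to 45.1 ± 5.52 (log2 difference 1.15), and the protease inhibitor Timp1 from 26.9 ± 14.3 to 103 ± 13.1 (log2 difference 1.70). Without UUO2 replicate 2 the log2 difference of Osmr was 0.63 against 0.99 with it, and that of Socs3 was 0.66, both still called. Of 29 listed acute-phase and interleukin 6 genes 23 had a row, of which 8 rose and 5 fell, and 4 of the 5 reversed an early rise. Over all genes 30% rose and 14.7% fell, so nothing is read from the list counts.

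The fibrinogen promoters are shown because the 3 genes moved together from neighbouring positions on chromosome 3 (RefSeq, GRCm38.p6, 250 bases before to 50 after the start, 5′ to 3′ on the gene's strand). Matches to CTGGGAA, a core of the interleukin 6 response element of acute-phase genes, or to TTCCNGGAA, a STAT-type palindrome, on either strand, are in capitals. The windows are Fga chr3:83025903-83026202, + strand, Fgb chr3:83049814-83050113, - strand and Fgg chr3:83007474-83007773, + strand.
Fga: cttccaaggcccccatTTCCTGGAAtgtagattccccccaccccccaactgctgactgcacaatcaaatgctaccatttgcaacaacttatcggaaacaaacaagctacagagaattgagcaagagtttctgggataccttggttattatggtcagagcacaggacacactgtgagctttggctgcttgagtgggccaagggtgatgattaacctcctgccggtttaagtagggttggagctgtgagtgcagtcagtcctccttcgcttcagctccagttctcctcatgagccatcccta
Fgb: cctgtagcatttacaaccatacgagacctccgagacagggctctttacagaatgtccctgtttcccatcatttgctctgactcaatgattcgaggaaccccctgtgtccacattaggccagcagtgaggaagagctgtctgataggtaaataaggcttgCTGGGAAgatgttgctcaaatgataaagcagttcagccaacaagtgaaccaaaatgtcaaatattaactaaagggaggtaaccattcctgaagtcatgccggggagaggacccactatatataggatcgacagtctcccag
Fgg: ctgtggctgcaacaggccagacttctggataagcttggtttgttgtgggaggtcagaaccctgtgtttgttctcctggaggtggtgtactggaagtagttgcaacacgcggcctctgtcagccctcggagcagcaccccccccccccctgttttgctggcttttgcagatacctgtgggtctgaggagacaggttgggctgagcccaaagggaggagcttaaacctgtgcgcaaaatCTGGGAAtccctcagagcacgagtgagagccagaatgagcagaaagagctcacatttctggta
Fgb and Fgg have 1 CTGGGAA each, and Fga has 1 TTCCNGGAA and 0 of the former. The motif CTGGGAA is in 11.1% and TTCCNGGAA in 1.15% of all 27025 promoters of this length. Of the 19 promoters of the acute-phase list with an entry 2 hold the former (10.5%, near the share of all promoters) and 1 the latter (5.26%). A match is a stretch of letters, not a shown binding site.

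Immediate-early genes, transcription factors switched on within minutes of a stimulus, rose in a share near that of all genes. Of 20 genes 7 rose, 0 fell, and 9 had been called on day 2 with no further call. Without UUO2 replicate 2, 3 rose, and without replicate 3, 4 did. Egr1 was at 13.1, 2.7, 5.82 and 14.2 in UUO2 and 24.8, 28.4, 27.8 and 24.4 in UUO7 (log2 difference 1.35, SE 0.494, limma adjusted p = 0.0224). Its call was lost without UUO2 replicate 2 (log2 difference 0.94) and without UUO2 replicate 3 (1.24). Klf2, a factor of endothelium under flow, rose from 4.17 ± 0.618 to 20.9 ± 3.17. Atf3, a stress-induced factor, and Myc, a driver of growth, had no call between the days: Atf3 was at 14 ± 6.56 and 15.8 ± 3.81, and Myc at 19.8 ± 8.03 and 29.2 ± 3.43, both above the sham means of 0.873 and 2.3.

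Some genes of the stress responses to protein misfolding, amino acid shortage and oxidation fell between the days. Of 23 genes of the unfolded protein and integrated stress responses 22 were higher than sham on day 2, and 12 fell and 0 rose by day 7, with 11 of these 12 counted as reversed. Psat1, an enzyme of serine synthesis that the factor Atf4 induces, read 41.5, 35.4, 45.2 and 40.1 and then 12.5, 13.4, 13.2 and 13.3, each near and below the sham mean of 14.1 (log2 difference -1.89, SE 0.201, limma adjusted p = 1.1e-07). Trib3, a pseudokinase of the same response, fell from 13.4 ± 5.8 to 5.51 ± 1.21 (log2 difference -1.34), and Chac1, a glutathione-degrading enzyme, from 9.79 ± 4.42 to 2.18 ± 0.515 (log2 difference -1.91). The stress hormone Gdf15 had no call, at 59.2 ± 30.9 and 53.1 ± 12.5. Of 12 targets of NRF2, the factor of the antioxidant response, 11 fell, and 7 fell without UUO7 replicate 4. Heme oxygenase (Hmox1) read 144, 49.9, 169 and 152 and then 43.9, 44.1, 53.8 and 38.7 FPKM, with sham at 21.3 (log2 difference -1.71, SE 0.246, limma adjusted p = 5.1e-06). UUO2 replicate 2 lay within the range of UUO7, and the other 3 UUO2 libraries above it. Gsta1, a glutathione transferase at 0.273 in sham, stood at 18.5 ± 4.44 on day 2 and 2.58 ± 0.881 on day 7 (log2 difference -2.74).

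Cholesterol synthesis genes went from a mixed early pattern to a common fall. Of 22 genes 17 fell and 0 rose between the days, 8 of them reversing an early rise. The median against sham was 0.23 on day 2 and -0.84 on day 7. The sterol sensor Insig1 went from 25.7, 21.6, 21 and 19.1 to 7.14, 6.87, 5.81 and 8.06 (log2 difference -1.84, SE 0.211, limma adjusted p = 3.0e-07). All UUO7 libraries lay below all UUO2 libraries.

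Proliferation genes were above sham on both days, and few were called between them. Of 23 mitosis genes 22 were higher than sham on day 2, and between the days 1 fell and 0 rose, while 21 had no further call. The median against sham was 1.69 on day 2 and 1.64 on day 7. The kinase Cdk1 read 19.6, 9.69, 16.8 and 22.9 in UUO2 and 18.1, 22.1, 19.6 and 20.2 in UUO7, from 1.62 in sham, with UUO2 replicate 2 lowest. The proliferation marker Mki67 stood at 5.05 ± 1.03 and 5.25 ± 0.861, and Top2a, a topoisomerase of dividing cells, at 15.6 ± 4.97 and 23 ± 3.15. The 1 gene that fell was Ect2, which is needed for the division of the cell body and was named after its value was seen, with a log2 difference of -0.57. Its call was lost in 5 of the 8 fits that left out a single library (UUO2 replicates 1, 3 and 4, UUO7 replicates 1 and 3). DNA replication genes were similar: 24 of 25 were higher than sham on day 2, and 3 rose and 2 fell afterwards. Without UUO2 replicate 2 or UUO7 replicate 3, 1 DNA replication gene rose, and without UUO2 replicate 1 or 4, 5 did. The small number of calls depends on the scale. On the deposited values alone 5 mitosis genes were called higher and 1 lower, and 11 DNA replication genes higher and 2 lower. In the authors' deposited contrast 1 mitosis gene is called higher and 8 lower, and 0 DNA replication genes higher and 5 lower. Of 17 genes of p53 and cell cycle arrest 7 rose and 1 fell. The arrest gene Cdkn1a (p21) stood at 26, 12.8, 27.2 and 26.3 and 41.5, 36.6, 42.8 and 45.4 without a call, and Gadd45b, a stress-induced regulator of growth arrest, rose from 6.26 ± 2.15 to 26 ± 3.3.

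The promoter of Cdk1 is shown as 1 of the mitosis genes that rose together by day 2 (chr10:69352863-69353162, - strand, RefSeq, GRCm38.p6). Capitals mark CCAAT, the box bound by NF-Y, and TTTGAA, the core of the cell cycle homology region, on either strand.
Cdk1: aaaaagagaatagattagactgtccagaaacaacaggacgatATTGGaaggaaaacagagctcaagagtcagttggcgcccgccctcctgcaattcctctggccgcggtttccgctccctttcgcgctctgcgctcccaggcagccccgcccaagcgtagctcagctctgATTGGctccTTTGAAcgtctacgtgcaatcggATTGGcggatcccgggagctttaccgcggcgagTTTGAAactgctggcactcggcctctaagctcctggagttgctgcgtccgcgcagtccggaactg
CCAAT occurs in 16 of the 19 mitosis promoters with an entry (84.2%) and in 37.9% of all promoters, and TTTGAA in 14 of 19 (73.7%) and 18.1%. Top2a, Cdk1 and Birc5, the mitosis genes with the highest means, have 8, 5 and 0 matches to these motifs, so the promoter shown does not stand for all. Neither motif contains the other, and a match is again no shown site.

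Matrix genes rose together. Of 24 genes of fibrillar collagens and their processing 21 rose, 19 of them by at least 1 in log2 on both scales, and 0 fell. Col3a1 (chr1:45311538-45349706, + strand, mm10), the collagen of early scar, read 57.3, 51.6, 33.8 and 58.7 FPKM in UUO2 and 265, 347, 242 and 315 in UUO7, from 6.41 in sham (log2 difference 2.18, SE 0.245, limma adjusted p = 2.2e-07). Col1a1 rose from 20.2, 23.6, 11.8 and 23.6 to 76.8, 91, 76.8 and 92.5 (log2 difference 1.74), and fibronectin (Fn1), the scaffold on which collagen is assembled, from 15.3, 14.4, 9.88 and 15.1 to 96.5, 126, 94.9 and 117 (log2 difference 2.57). In each of these the 4 UUO7 libraries lay above the 4 UUO2 libraries. Both collagens and fibronectin had already been called higher than sham on day 2. Tenascin C (Tnc), a matrix protein of wounds, was a late gene, at 0.45, 2.98, 0.46 and 0.66 in sham, 1.28 ± 0.615 on day 2 and 18.3 ± 1.24 on day 7 (log2 difference 2.85).

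Small proteoglycans and elastic fibre genes were mostly late: 17 of 17 rose, 11 of them with no call on day 2 (9 without sham replicate 2), and the median against sham was -0.09 on day 2 and 2.17 on day 7. Matrix Gla protein (Mgp, chr6:136872435-136875823, - strand, mm10), a vitamin K-dependent inhibitor of calcification, had the highest level. It read 170.3, 184, 142 and 310.4 FPKM in UUO2 and 3117, 3285, 3943 and 3423 in UUO7, from 79.5 ± 32.8 in sham (log2 difference 3.80, SE 0.281, limma adjusted p = 1.1e-09). The lowest UUO7 library stood far above the highest UUO2 library, which was replicate 4. Decorin (Dcn), which binds collagen fibrils, was at 8.4, 20.1, 6.22 and 6.71 in sham, 13.2 ± 3.1 on day 2 and 60.6 ± 7.8 on day 7 (log2 difference 1.80), and without sham replicate 2 it was called higher than sham on day 2. Of 17 basement membrane genes 12 rose and 2 fell, or 1 without UUO2 replicate 2 or 3 or without UUO7 replicate 1 or 3. Col4a1, the common collagen IV chain, rose from 77.3 ± 11.5 to 203 ± 13.6 and perlecan (Hspg2) from 17.9 ± 5.55 to 93.6 ± 15.2.

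Among fibroblast and myofibroblast markers 14 of 16 rose and 0 fell. The pericyte and fibroblast receptor Pdgfrb read 6.32, 4.89, 4.28 and 8.07 in UUO2, near the sham values of 3.65, 5.36, 3.1 and 3.7, and 34, 34.3, 34.5 and 35.2 in UUO7 (log2 difference 2.08, SE 0.163, limma adjusted p = 2.6e-09). Without sham replicate 2, the highest of the sham libraries, it was already called higher than sham on day 2. Thy1, a surface protein of fibroblasts and of T cells, rose from 4.42, 2.73, 5.29 and 13.2 to 101, 93, 101 and 92.1 (log2 difference 3.58). Smooth muscle actin (Acta2), the usual marker of the myofibroblast, behaved differently: it was above sham on day 2, read 81.1, 20.8, 36.4 and 82.4 and then 103, 108, 88 and 79.2, and overlapped between the days without a call (log2 difference 0.62, limma adjusted p = 0.108). It was called higher without UUO2 replicate 1 or without replicate 4, with 0.87 in either case. Of 22 genes of the TGF-beta pathway, the main signal for matrix production, 13 rose and 2 fell. The ligand Tgfb1 rose from 11.1, 6.57, 8.66 and 14.3 to 30.8, 32.4, 29.9 and 33.6 (log2 difference 1.27, SE 0.176, limma adjusted p = 3.3e-06). Its target Ctgf, also called Ccn2, was at 16.1 in sham, 20.4, 5.89, 11.5 and 28.2 on day 2 and 73.3, 111, 84.1 and 65.6 on day 7 (log2 difference 2.11). Bmp7, a factor that opposes TGF-beta in the tubule, fell from 11.1 ± 3.15 to 7.03 ± 0.377, and was named after its value was seen.

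Matrix proteases rose with the matrix. Of 17 proteases and inhibitors 13 rose and 1 fell, with a median of 2.13. Matrilysin (Mmp7), an epithelial protease, was at 0.07, 0.17, 0 and 0 FPKM in sham, 1.52, 3.1, 1.06 and 2.41 on day 2 and 48.6, 53.3, 49.2 and 44.8 on day 7 (log2 difference 3.80, SE 0.387, limma adjusted p = 6.4e-08). The gelatinase Mmp2 was level with sham on day 2 (1.25 and 1.33) and read 28.4, 35.5, 37.3 and 43.8 on day 7 (log2 difference 3.77). Serpine2, an inhibitor of thrombin and plasminogen activators, followed it with 4.84, 7.03, 4.52 and 7 and then 80.7, 91.8, 116 and 104 (log2 difference 3.54). The 1 member that fell was Timp3, an inhibitor bound to matrix and named after its value was seen, from 277 ± 24.4 to 155 ± 9.51.

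**Figure D4:**
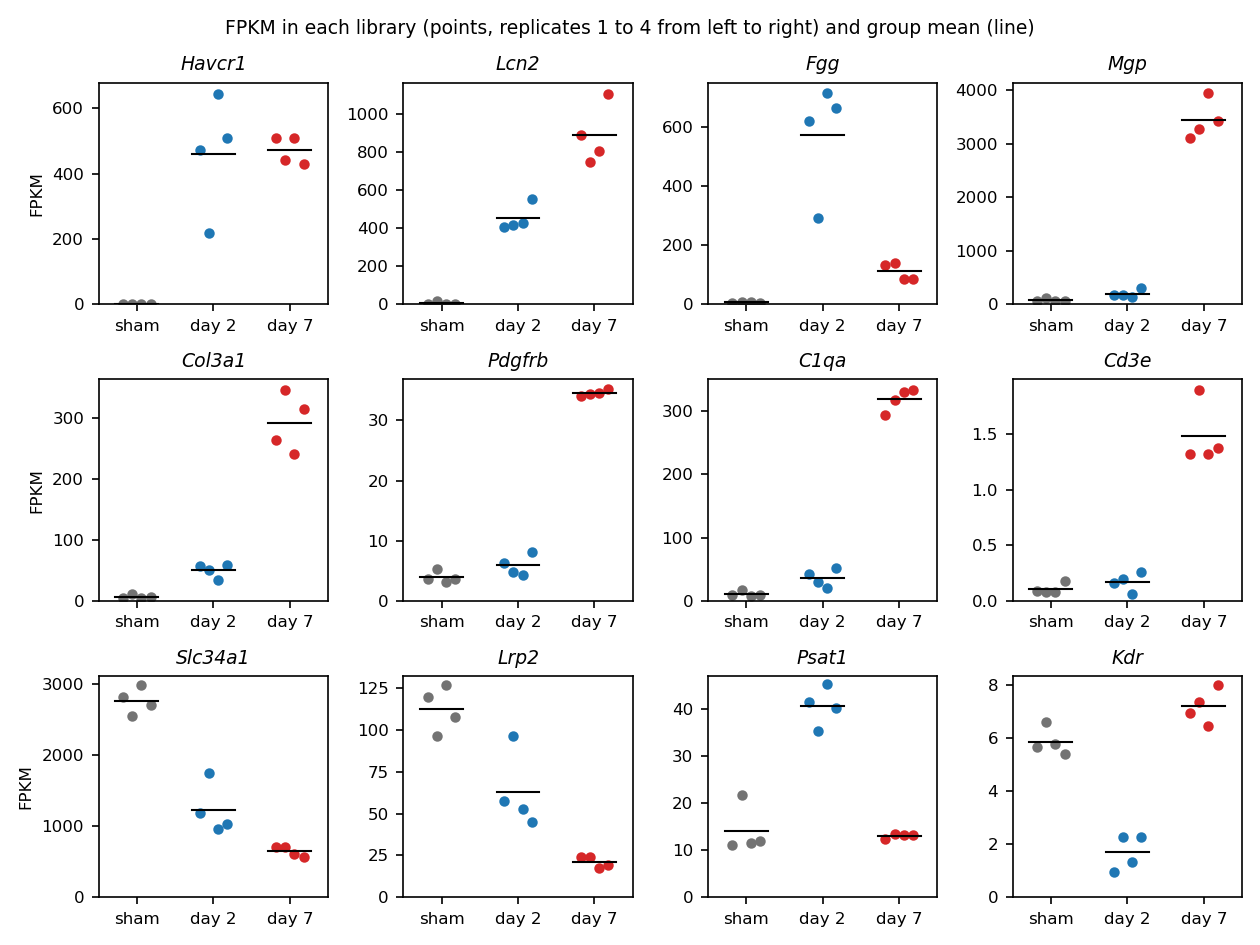
FPKM of 12 genes (panels, linear axes from 0) in the 4 sham, 4 day 2 (UUO2) and 4 day 7 (UUO7) libraries, with the group mean as a line. Havcr1 overlaps between the days, Fgg and Psat1 peak on day 2, Mgp, Col3a1, Pdgfrb, C1qa and Cd3e are highest on day 7, Slc34a1 and Lrp2 step down on both days and Kdr dips on day 2.

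Genes of several leukocyte lineages rose. Of 25 macrophage and monocyte genes 23 rose and 0 fell, with 20 growing from an early rise. The complement component C1qa, made by tissue macrophages, read 9.36, 17.9, 7.09 and 8.72 FPKM in sham, 43.1, 29.4, 21.2 and 51.5 on day 2 and 294, 317, 330.5 and 334 on day 7 (log2 difference 2.83, SE 0.281, limma adjusted p = 4.7e-08). Lysozyme (Lyz2) rose from 52.9, 41, 25.1 and 64.8 to 305, 417, 333 and 413 (log2 difference 2.69), and apolipoprotein E (Apoe) from 394 ± 40.9 to 1947 ± 120.2 (log2 difference 1.96). Cd68, a lysosomal glycoprotein of macrophages, rose from 11.5 ± 2.11 to 37.1 ± 2.98, the smaller step of 1.29. Of 13 genes of dendritic cells and MHC class II 12 rose. The invariant chain Cd74 rose from 359, 188, 227 and 389 to 1415, 1519.6, 1827 and 1728 (log2 difference 2.18) and H2-Aa from 99 ± 39.8 to 817 ± 118 (log2 difference 2.76).

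All 12 T and NK cell genes with a row, of 20 listed, rose, and 10 of them were late. Cd3e, a chain of the T cell receptor complex, read 0.09, 0.08, 0.08 and 0.18 in sham, 0.16, 0.2, 0.06 and 0.26 on day 2 and 1.32, 1.9, 1.32 and 1.38 on day 7 (log2 difference 0.95, SE 0.149, limma adjusted p = 1.5e-05). These levels are low, and on the log2(FPKM + 1) scale the change of such genes is understated. Trbc2, the constant region of a receptor chain, rose from 1.1 ± 0.582 to 9.83 ± 2.19. Of 12 listed B and plasma cell genes 6 had a row, of which 4 rose, 2 of these being late. The immunoglobulin genes Igkc and Ighm rose from 7.47 ± 2.2 to 48.6 ± 15.9 and from 3.44 ± 1.02 to 27.2 ± 2.42, with Igkc below its sham mean of 16.1 on day 2. Of 13 neutrophil genes 3 had a row and 1 rose. S100a8 stood at 1.94 ± 0.346 and 3.2 ± 1.03 without a call.

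Chemokine genes, which draw these cells in, rose in 21 of 26 cases and fell in 0. Ccl2, which attracts monocytes, rose from 7.32, 3.88, 5.97 and 11.6 to 37.3, 34.2, 54.8 and 32.5 (log2 difference 2.04, SE 0.269, limma adjusted p = 1.7e-06). Ccl8 was lower still on day 2, at 0.21, 0.11, 0.24 and 0.23, and read 14.3, 18.7, 13.7 and 11.3 on day 7 (log2 difference 3.47). Cxcl10, an interferon-induced chemokine for T cells, had its rise by day 2: 3.77 in sham, 57.9, 20.5, 46.4 and 70.2 and then 47.9, 47.4, 56.2 and 37.9, without a call between the days. Of 18 complement genes 10 rose and 1 fell. C3, the central component, stood at 363 ± 65.9 and 395 ± 21.7 from 3.79 in sham, with no call between the days, while the C1 inhibitor Serping1 rose from 15, 16.4, 9.69 and 18.7 to 149, 167, 152 and 183 (log2 difference 3.05), without a call against sham on day 2.

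Interferon-response genes rose in 26 of 28 cases, 17 growing from an early rise and 9 late. Isg15, a ubiquitin-like protein, read 12.1, 5.67, 10.4 and 18.6 and then 44.6, 42.8, 42.4 and 36.1 (log2 difference 1.51, SE 0.233, limma adjusted p = 1.2e-05), and Oasl2, an antiviral enzyme relative, rose from 6.2 ± 2.21 to 34.8 ± 3.26 (log2 difference 2.04). The MHC class I light chain B2m, the most abundant of the list, rose from 432 ± 35.1 to 843 ± 79.2 (log2 difference 0.61). The promoter of Isg15 is shown because the list moved almost as 1 group (chr4:156200769-156201068, - strand, RefSeq, GRCm38.p6). Capitals mark the core of the interferon-stimulated response element, on either strand, with overlapping matches run together.
Isg15: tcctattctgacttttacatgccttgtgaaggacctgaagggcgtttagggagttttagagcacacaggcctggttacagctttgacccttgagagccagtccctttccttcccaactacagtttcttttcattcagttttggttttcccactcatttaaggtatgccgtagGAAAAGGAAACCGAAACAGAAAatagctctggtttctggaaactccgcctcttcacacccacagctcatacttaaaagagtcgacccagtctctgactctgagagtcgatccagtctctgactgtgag
The motif, added after the values were seen, has 3 matches here and is in 11 of the 24 list promoters with an entry (45.8%) and in 3.49% of all promoters.

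Most endothelial genes rose between the days. Of 19 genes 9 were lower than sham on day 2 (6 without sham replicate 2) and 0 higher, and 17 rose by day 7. The VEGF receptor Kdr read 5.64, 6.59, 5.76 and 5.38 FPKM in sham, 0.95, 2.27, 1.33 and 2.27 on day 2 and 6.92, 7.36, 6.46 and 7.97 on day 7 (log2 difference 1.36, SE 0.143, limma adjusted p = 9.8e-08). Each UUO2 library was below every sham and UUO7 library. Egfl7, a secreted protein of vessels and the highest of the list, stood at 54.4 ± 12.1, 48.5 ± 26 and 190.3 ± 8.73 in sham, UUO2 and UUO7, and Vwf, the platelet-binding factor, at 1.23, 3.54, 0.67 and 1.04 in sham, 1.55 ± 0.947 in UUO2 and 10.7 ± 2.48 in UUO7. Of 10 podocyte genes 3 were lower and 1 higher than sham on day 2, and 8 rose and 1 fell between the days. Renin (Ren1), from the juxtaglomerular cells, stood at 31.4 ± 8.21, 8.45 ± 1.12 and 52.3 ± 15.1 (log2 difference 2.13). The summed level of 6 red cell genes was 322 to 686 FPKM in sham, 97.1 to 349.6 in UUO2 and 362 to 495 in UUO7. Dissection, blood content and the library set of UUO2 were not tested as sources of the lower day 2 values.

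Genes of mitochondrial energy metabolism fell in part. Of 35 nuclear genes of oxidative phosphorylation 22 fell and 0 rose, 0 of them by 1 or more in log2 on both scales, with a median of -0.64. Without UUO2 replicate 2, 15 fell. Atp5b, the catalytic subunit of ATP synthase, read 1892, 2277, 1884 and 1822 and then 1163, 1160.3, 1113 and 1072 (log2 difference -1.15, SE 0.141, limma adjusted p = 6.4e-07). Of 17 TCA cycle genes 15 fell, led by Pcx, the enzyme that feeds pyruvate into the cycle, from 85.6 ± 26.2 to 29.9 ± 6.86 (log2 difference -1.81). Of 28 fatty acid oxidation genes 16 fell and 0 rose. Ppara, the factor that drives them, fell from 6.51, 9.65, 7.86 and 5.12 to 2.65, 1.85, 2.48 and 1.68 (log2 difference -1.64), while Cpt1a, which admits fatty acids to the mitochondrion, stood at 55.5 ± 10.2 and 49.6 ± 3.34, both below the sham mean of 111, without a call. Cyp4a14, an omega-hydroxylase of fatty acids, went from 12.5, 43.5, 9.71 and 4.92 in sham to 83.8, 208, 86.9 and 55.2 on day 2 and 10.5, 22, 29.6 and 15.4 on day 7. Its call was lost without UUO2 replicate 2 (log2 difference -2.30, with -2.68 in the full fit). Cyp2a5, a hydroxylase of small foreign compounds, went from 35.9 to 134 ± 19.6 and 20.2 ± 8.67. Cyp4a12b fell from 39.3 ± 7.73 to 4.89 ± 0.99. Mitochondrially encoded genes fell in 13 of 15 cases, with a median of -1.65, but the UUO2 libraries had more mitochondrial ribosomal RNA than all others. The message mt-Co2 stood at 6016 ± 588 in sham, 27871 ± 1514 in UUO2 and 5806 ± 1537 in UUO7. Over the list the median against sham was -0.32 on day 2 and -1.80 on day 7, 7 of the 15 were late, and the summed level was 106400 to 116100 FPKM in sham, 111400 to 137800 in UUO2 and 39670 to 48790 in UUO7.

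The 4 greatest falls on log2(FPKM + 1) among the named genes are of genes listed at 0 FPKM on day 7, so their size is set by the added 1 and no fold is given. Mir703, Mir686, Hist1h2ap and AC161763.1 stood at 179.6, 138, 97 and 62.1 FPKM on average in UUO2 and were listed at 0 in all 4 UUO7 and all 4 sham libraries. For both microRNA genes, annotated at 109 bases and so shorter than the fragment length of 145 to 175 bases that the whole-fragment steps gave, the authors' deposited table gives log2 fold changes of -0.06 and -0.75 for UUO7 against UUO2, so an FPKM of 0 does not show that their reads were absent. For Hist1h2ap the value in the authors' deposited table is -12.60. Hist1h2ap, Sprr2a2, Gsta1 and Cyp4a12b have near-identical relatives in the genome, so how their reads were shared out is uncertain. Malat1, a nuclear RNA, stood at 960.5 ± 103 in UUO2, 266 ± 40.2 in UUO7 and 158 ± 10.6 in sham.

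**Figure D5:**
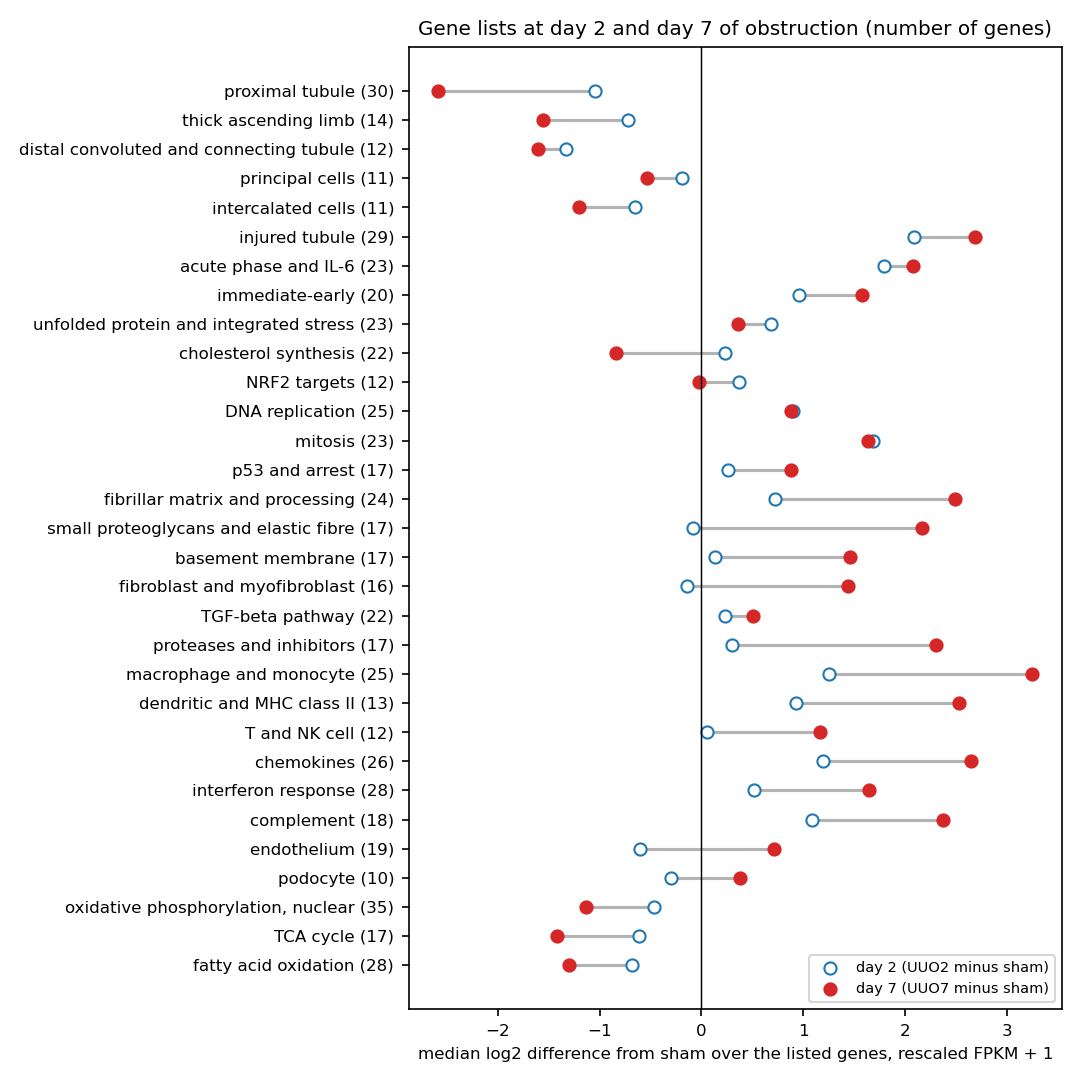
Median log2 difference from sham over the genes of 31 lists (rows, number of genes with a row in brackets) on day 2 (open) and day 7 (filled), on rescaled FPKM + 1. The proteoglycan list goes from -0.09 to 2.17, macrophages from 1.25 to 3.25 and the proximal tubule from -1.04 to -2.58, while mitosis stays near 1.64 and cholesterol synthesis and endothelium change side.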

How the data were processed

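RNA from polyA-selected libraries of 24 mouse kidneys was measured by sequencing, and the 8 UUO2 and UUO7 libraries are the subject, grouped by sample title. The submitters' processing notes name FastQC, RSEM, Bowtie2, DESeq2 and mm10, with no role or order. The authors deposited 1 table with 14785 genes, where each library has a column whose unit the headers do not state. The values behave as FPKM, the deposited columns summing to between 731659 and 822665 in the 8 libraries. The table also holds the authors' log2 fold changes with adjusted p-values, deposited without the test that gave them, and 0 value columns without a sample.

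The test was limma's (version 3.58.1, R 4.3.3), run with lmFit and a trended eBayes step. Its input was log2(FPKM + 1) of 24 libraries with 1 coefficient per group, on deposited and on median-ratio rescaled values (scaling factors 0.883 to 0.905 in UUO2 and 1.12 to 1.18 in UUO7). SE is limma's moderated standard error and SD is over animals. Depth was read with Python 3.11.15 and numpy 2.4.6 from the spacing of low values of genes with 1 transcript length, and sets the counting error. On simulated data with 200 of 14785 genes changed the test was checked, and the depth scan was checked at known depths. Genes were named by a rule: a fixed set, the 12 greatest rises and falls, the 4 greatest of each time course, and in each of 46 lists up to 3 called members and the one with the highest mean. Rises, falls and time-course genes had to average at least 20 FPKM over the 8 libraries. They also needed no overlap between UUO2 and UUO7 on either scale, so their separation was a condition of being named. Genes named outside the rule are marked where they stand. Members and lists were chosen with earlier results of these data known. Promoters came from RefSeq. Symbols held by more than 1 gene entry were not named. The alternatives were pseudocounts, a minimum mean, stricter calls, fewer groups, a replicate block, length bins and the removal of each UUO2 and UUO7 library. The removal of sham libraries, the list counts without UUO2 replicate 2 or 4, and the interferon response motif, were chosen after seeing the data. R4W replicate 2 has a title and a treatment label that disagree and was placed by title. Counts were not tested, since the table holds none. Some genes are not reported here.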

Additional observations from a re-analysis of the deposited data

Results flagged for a closer look

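In groups of 4, a library was singled out when its gap to the nearest of the others exceeded Dixon's 95% critical value as a share of the group's range for a named gene. This held in 16 of 210 checks over the UUO2 and UUO7 libraries, where about 1 in 20, or 10.5, is what chance gives. UUO2 replicate 2 was the library in 9 of the 16. All values are FPKM.

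In UUO2 replicate 2, these genes were higher than in the other UUO2 libraries: Aqp2 at 454.65 (others 157.93 to 174.76), Atp5b at 2277.48 (others 1821.54 to 1892.5), Pck1 at 1059.65 (others 311.48 to 413.33), Egf at 58.19 (others 9.14 to 12.81) and Klk1 at 810.54 (others 241.75 to 320.53). In the same library these were lower: Cdkn1a at 12.82 (others 26.01 to 27.23), Chac1 at 3.22 (others 11.12 to 12.43), Trib3 at 4.78 (others 15.18 to 17.03) and Fgb at 29.1 (others 54.7 to 59.2). Its depth of 108.7 M fragments was the highest of the 24.

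Other UUO2 libraries were singled out for Lcn2 at 552.95 (others 407.54 to 426.39), Sprr2a2 at 23.76 (others 0.61 to 4.47) and Fn1 at 9.88 (others 14.45 to 15.28). In UUO7 the high libraries were Krt19 at 118.98 (others 75.31 to 81.1), Oasl2 at 39.71 (others 32.92 to 33.61) and Cd3e at 1.9 (others 1.32 to 1.38), and the low one was Gdf15 at 34.59 (others 57.28 to 61.95).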

How the results depend on the processing

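The scale sets the balance of directions: 7686 genes were higher, 1649 reversed and 3133 grew on the deposited values alone, and 4722 were lower, 2126 reversed and 2567 grew on the rescaled values alone. A mean of at least 50 FPKM left 1242 calls (669 higher, 573 lower), with 169 reversed, 582 grown, 590 without a further call and 423 late, fewer genes being tested. An absolute log2 difference of at least 1 on both scales left 1691 (1357 higher, 334 lower), with 127 reversed, 149 grown, 906 without a further call and 1134 late. At an adjusted p under 0.01, 644 reversed and 955 grew. Leaving out single UUO2, UUO7 or sham libraries gave 6052 to 6650 calls, 4120 to 4488 higher, 1932 to 2162 lower, 835 to 1253 reversed and 1395 to 1768 grown. Pseudocounts of 0.1 and 10, fits on fewer groups, centring within bins of transcript length and the other placement of R4W replicate 2 kept these counts within 1.5 times. The replicate numbers do not pair the animals (r of same-numbered deviations -0.121 to 0.024). With the replicate block 6538 genes were called, 1045 of the early changes reversed and 1622 grew, and 0 calls of named genes changed.

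Of 85 called genes named in the text, 0 changed direction under any of these settings. Uncalled genes did. On the deposited values the log2 difference was above 0 for Cdk1 (0.26), Clu (0.070), C3 (0.14), Atf3 (0.27), Mki67 (0.053), Kap (0.26), Cxcl10 (0.075), Gdf15 (0.042) and Havcr1 (0.14), each below 0 on the rescaled values. Over the fits without single libraries the ranges of uncalled genes that crossed 0 were Cdk1 -0.30 to 0.074, Myc -0.016 to 0.50, Atf3 -0.44 to 0.17, Egf -0.71 to 0.15, Umod -0.11 to 0.23 and Kap -0.22 to 0.10. Depth was 73.1 to 108.7 M fragments in UUO2 and 26.5 to 29.9 in UUO7, so low values carry more counting error on day 7, and no gene of the table averages under 1 FPKM across the 24 libraries.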

Other observations

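Lysosomal genes moved in both directions. Of 18 genes 5 rose and 7 fell. Ctss, a cathepsin of antigen-presenting cells, rose from 20.9, 12.8, 12.2 and 23.1 FPKM in UUO2 to 156, 208, 193 and 182 in UUO7 (log2 difference 3.05), and Cd63, a membrane protein of most lysosomes, fell from 2259 ± 337 to 1567 ± 186 (SD, n = 4). Of 16 glycolysis genes 6 rose and 4 fell, and 4 rose without UUO2 replicate 2 or without UUO7 replicate 1 or 3; 30% of all genes tested rose. The lactate exporter Slc16a3 rose from 0.93, 0.46, 0.67 and 1.45 to 11.8, 9.97, 9.05 and 15.7, while Gapdh stood at 1980.2 ± 238 and 1964 ± 173 without a call. Among 12 heat shock genes 4 fell and 1 rose, and 2 fell without UUO7 replicate 4. The inducible chaperone Hsp90aa1 fell from 292 ± 70.2 to 151 ± 9.71, next to its sham mean of 145, and the small heat shock protein Hspb1 rose from 139 ± 37.1 to 365 ± 37.6. All 30 ribosomal protein genes were higher than sham on day 2, and 3 rose further. Without single libraries 1 to 6 did, with 1 without UUO2 replicate 1, 2 or 3 or UUO7 replicate 1 or 3, and 6 without UUO2 replicate 4. On the deposited values alone 24 of the 30 were called higher on day 7.

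The summed level of 9 adipose genes was 476 to 664 FPKM in sham, 154 to 198 in UUO2 and 218 to 279 in UUO7. Igfbp3, a binding protein for insulin-like growth factors, had one of the greatest reversing rises, at 46.5, 55.2, 39.5 and 42.9 in sham, 17.6, 11.9, 25.6 and 32.3 on day 2 and 128, 135, 113 and 136 on day 7 (log2 difference 2.24). Cd36, a fatty acid transporter, was among the greatest falls that grew, at 176, 121, 191 and 177 in sham, 115, 138, 109 and 83.9 on day 2 and 36, 37.4, 27.4 and 33 on day 7 (log2 difference -2.04).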
